A study of Homo sapiens with 10 samples.

Results

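The genes described here encode subunits of the SWI/SNF (BAF) chromatin remodeling complexes and were followed in RNA-seq of 2 untreated human endothelial cell lines. They are the rows of the count table whose Ensembl identifiers carry, in GENCODE 44, the symbols SMARCA4, SMARCA2, SMARCC1, SMARCC2, SMARCD1, SMARCB1, ARID1A, ARID1B, ARID2 and PBRM1, which makes 10 of 60448 genes listed. The rule used names alone, and all 10 genes passed the filter on low counts that left 16310 genes to be tested. EA.hy926 cells, made by fusing umbilical vein endothelium with the lung carcinoma line A549, were compared with HMEC-1 cells, dermal microvascular endothelial cells that carry the SV40 large T antigen. Each line had 5 biological replicates, labelled as endothelial and as genotype WT. The lines were grown to confluent monolayers in different media, Advanced DMEM for EA.hy926 and MCDB 131 with added epidermal growth factor and hydrocortisone for HMEC-1, so an effect of the line and an effect of its medium cannot be told apart. The replicates are cultures of 1 line each, and the tests compare these 2 lines, not vessel types.

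SWI/SNF complexes use the energy of ATP to slide or evict nucleosomes and so open DNA at enhancers and promoters. Each complex holds a single ATPase, either SMARCA4 (BRG1) or SMARCA2 (BRM). In the canonical BAF and PBAF complexes it sits on a core of SMARCC, SMARCD, SMARCB1 and SMARCE1 subunits. ARID1A or ARID1B marks the canonical BAF complex, whereas ARID2 and PBRM1 mark the PBAF complex. The ATPases are known to serve in vascular development, and the A549 parent of EA.hy926 is known to lack functional SMARCA4 protein. Counts per gene do not tell which parental genome a transcript came from, nor how much protein is made, and the part of the A549 genome in the values below was not tested.

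Paralogous subunits such as SMARCA4 and SMARCA2 occupy the same place in the complex, so the values below depend on reads being told apart between them. The coding sequences of SMARCA4 and SMARCA2 were identical at 75.3% of 4626 aligned bases, those of SMARCC1 and SMARCC2 at 73.1% of 3131, and those of ARID1A and ARID1B at 72.3% of 6054. No stretch of 50 bases was shared exactly between the annotated transcripts of any of these pairs. The most similar 120-base stretch within 1 coding exon is printed for each pair, from GRCh38 on the strand of the gene, since reads from these stretches are the hardest to assign. The capitals mark the bases at which the paralogs differ. The stretches lie in exon 26 of SMARCA4 (chr19:11033314-11033433, plus strand), exon 25 of SMARCA2 (chr9:2115846-2115965, plus strand), exon 20 of SMARCC1 (chr3:47662470-47662589, minus strand), exon 21 of SMARCC2 (chr12:56171815-56171934, minus strand), exon 12 of ARID1A (chr1:26771125-26771244, plus strand) and exon 13 of ARID1B (chr6:157184237-157184356, plus strand).
SMARCA4: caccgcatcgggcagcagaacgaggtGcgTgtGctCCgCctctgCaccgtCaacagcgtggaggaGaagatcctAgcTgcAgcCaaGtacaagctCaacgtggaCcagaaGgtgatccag
SMARCA2: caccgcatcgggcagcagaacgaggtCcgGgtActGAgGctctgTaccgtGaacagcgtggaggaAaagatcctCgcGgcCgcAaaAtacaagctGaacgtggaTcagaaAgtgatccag
SMARCC1: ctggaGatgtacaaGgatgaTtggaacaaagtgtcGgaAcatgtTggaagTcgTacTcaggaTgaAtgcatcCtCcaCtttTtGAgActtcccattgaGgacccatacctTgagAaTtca
SMARCC2: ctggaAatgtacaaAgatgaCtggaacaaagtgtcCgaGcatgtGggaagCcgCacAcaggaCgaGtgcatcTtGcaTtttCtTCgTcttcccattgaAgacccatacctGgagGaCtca
ARID1A: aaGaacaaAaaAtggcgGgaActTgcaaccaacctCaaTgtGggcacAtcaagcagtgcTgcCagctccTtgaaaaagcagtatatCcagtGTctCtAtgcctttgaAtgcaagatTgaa
ARID1B: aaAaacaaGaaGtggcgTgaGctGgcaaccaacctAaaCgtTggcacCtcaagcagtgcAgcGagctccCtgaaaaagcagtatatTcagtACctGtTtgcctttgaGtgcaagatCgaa
Even here, 17 bases separated the ATPases, 22 the SMARCC genes and 20 the ARID1 genes. Of all 50-base stretches in their own transcripts, the 10 subunit genes shared between 0% and 2.22% with any other annotated gene, the highest being SMARCC2. Transcripts were compared in the sense direction only, so genes that overlap on the opposite strand do not enter these shares.

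Total counts lay between 34846046 and 39899324 in the EA.hy926 libraries and between 33391640 and 43877224 in the HMEC-1 libraries. Levels are given as CPM, counts scaled to the TMM-normalized library size, with mean ± SD over 5 replicates. The log2 fold change (log2FC) is EA.hy926 over HMEC-1, so positive values mean more transcript in EA.hy926, and SE is its standard error. Endothelial markers were found in both lines, with 13 of 14 genes above 3 counts in at least 1 EA.hy926 library and 14 of 14 in HMEC-1. In EA.hy926, EMCN stayed at 0 to 2 counts and CLDN5 at 0 to 5. The summed level of these markers was 6120 to 6844 CPM in EA.hy926 against 2133 to 2202 in HMEC-1. Of 10 epithelial markers, CDH1, ESRP1, GRHL2 and ELF3 were at or under 3 counts in every library of both lines, and the summed level of the list, mostly keratins, was 1275 to 1389 CPM in EA.hy926 against 425 to 487 in HMEC-1. Of the 6 epithelial markers tested, 4 were higher in EA.hy926 and 2 lower. The lower ones were KRT19 (2 to 7 counts in EA.hy926 against 109 to 165 in HMEC-1) and CLDN4 (12 to 26 against 44 to 73). Of 10 fibroblast and mural markers, 5 were at or under 3 counts in every EA.hy926 library (COL1A2, COL3A1, DCN, LUM and PDGFRA) and 2 in every HMEC-1 library (DCN and LUM), and their summed levels were 411 to 470 and 544 to 576 CPM. These sums come from different genes, mainly RGS5 in EA.hy926 (430.0 CPM against 5.05 in HMEC-1), and mainly COL1A1 (358 CPM against 0.318 in EA.hy926), COL1A2 (108 CPM against 0.0393) and CSPG4 (67.5 CPM against 0.207) in HMEC-1. The part of these marker differences in the values of the subunits was not tested.

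Both ATPase genes were less expressed in EA.hy926 than in HMEC-1 by a wide margin. PBRM1 was lower by less, and the scaffold and ARID genes differed by smaller amounts still. In RNA from whole cultures, fewer cells expressing a gene and less RNA per cell cannot be told apart. All 10 genes differed at an adjusted p under 0.05 by edgeR's quasi-likelihood test, 8 lower and 2 higher in EA.hy926. Because 85.8% of all genes tested passed this threshold, 43.3% lower and 42.6% higher, passing it says little by itself, and the size of the differences is what sets the members apart from one another. Among the 5572 genes at or above the mean CPM of the least expressed member, 90.7% passed. An absolute log2FC over 1 in addition was reached by 2 members, SMARCA4 and SMARCA2, both lower in EA.hy926. Of all genes tested, 35.5% passed both thresholds, 16.4% lower and 19.1% higher. Among the 5572 genes at or above the mean CPM of the least expressed member, 18.1% passed both. The CPM values of the lines did not overlap for any of the 10 members, which held for 77.4% of all genes tested. The median log2FC of the members was -0.26 and that of all genes tested -0.010. Scaling by library totals without TMM factors shifted the median gene by -0.13 (log2), and each of the 10 members kept its direction and stayed under the p threshold.

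**Figure D1:**
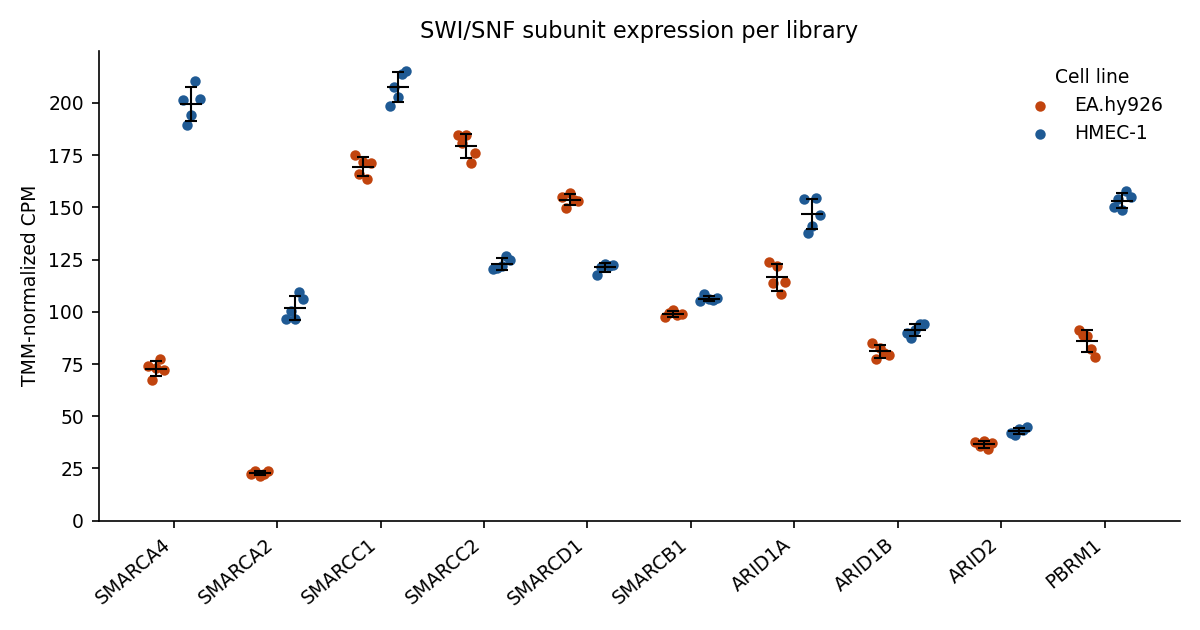
TMM-normalized CPM of the 10 subunit genes in each of the 5 EA.hy926 and 5 HMEC-1 libraries, with a bar at the mean of each line and error bars of 1 SD. The points of the lines do not overlap for any gene, and the distance is widest for SMARCA4 (72.8 against 199 CPM) and SMARCA2 (22.8 against 102 CPM).

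SMARCA4 (ENSG00000127616, chr19:10960932-11079426, plus strand) encodes the BRG1 ATPase. Its level in the EA.hy926 replicates 1 to 5 was 73.9, 67.2, 73.1, 77.5 and 72.2 CPM, and in the HMEC-1 replicates 201, 189, 194, 210.3 and 202 CPM. Every EA.hy926 library was thus far below the lowest HMEC-1 library. The means were 72.8 ± 3.71 and 199 ± 8.08 CPM (SD, n = 5), 2.74-fold higher in HMEC-1, with a log2FC of -1.45 (SE 0.035, 95% confidence interval -1.53 to -1.38, edgeR adjusted p = 1.2e-19). Leaving out any single library kept the log2FC between -1.49 and -1.42. The transcript was nonetheless well detected in EA.hy926, at 2230 to 2978 counts per library.

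SMARCA2 (ENSG00000080503, chr9:1980290-2193624, plus strand), the gene of the alternative ATPase BRM, showed the largest difference of the 10 members. EA.hy926 replicates 1 to 5 had 22.4, 23.6, 21.6, 22.5 and 23.8 CPM, and HMEC-1 replicates had 96.7, 101, 96.7, 109 and 106 CPM. The EA.hy926 libraries lay close together, and the HMEC-1 libraries were all far above them. The means were 22.8 ± 0.931 and 102 ± 5.63 CPM (SD, n = 5), 4.47-fold higher in HMEC-1, with a log2FC of -2.16 (SE 0.040, 95% confidence interval -2.24 to -2.08, edgeR adjusted p = 1.2e-21). Of all genes tested, 7.93% had a lower log2FC than SMARCA2 and 11.2% a lower one than SMARCA4. Both ATPase genes also passed a test against an absolute log2FC of 1 itself (glmTreat in edgeR, adjusted p = 7.8e-18 for SMARCA2 and 1.3e-11 for SMARCA4).

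The ATPase transcripts did not trade places between the lines. Per length, as RPKM (CPM per kilobase of annotated exons), the summed level of SMARCA4 and SMARCA2 was 5.86 ± 0.217 in EA.hy926 and 18.1 ± 0.751 in HMEC-1 (SD, n = 5), 3.09-fold higher in HMEC-1 (15.8 and 48.9 with the longest transcript as length, the same fold). SMARCA4 made up 79.6% ± 1.32 of this sum in EA.hy926 and 70.6% ± 0.854 in HMEC-1. SMARCA4 was therefore the more abundant ATPase transcript in both lines, and its share was larger in the line with less of both. In single libraries the RPKM ratio of SMARCA4 to SMARCA2 was 4.04, 3.49, 4.15, 4.21 and 3.71 in EA.hy926 and 2.55, 2.30, 2.46, 2.36 and 2.34 in HMEC-1. The ranges of the ratio did not overlap, and a ratio within a library does not depend on how libraries are scaled.

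The balance of core scaffold transcripts differed between the lines. SMARCC1 (BAF155, ENSG00000173473, chr3:47585269-47782106, minus strand) was lower in EA.hy926, and its paralog SMARCC2 (BAF170, ENSG00000139613, chr12:56162359-56189567, minus strand) was higher. SMARCC1 had 175, 166, 172, 163 and 171 CPM in EA.hy926 against 199, 207, 203, 214 and 215 in HMEC-1. SMARCC2 had 185, 181, 185, 171 and 176 CPM in EA.hy926 against 120.3, 121, 122, 127 and 125 in HMEC-1. SMARCC1 was thus below its HMEC-1 range and SMARCC2 above it in each EA.hy926 library. The log2FC was -0.29 for SMARCC1 (SE 0.028, edgeR adjusted p = 3.2e-09) and 0.55 for SMARCC2 (SE 0.027, edgeR adjusted p = 4.3e-14), and 9.91% of the exonic bases of SMARCC2 lie under exons of other genes.

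In RPKM the sum of SMARCC1 and SMARCC2 was 41.8 ± 1.17 in EA.hy926 and 40.6 ± 1.19 in HMEC-1 (SD, n = 5). The ranges of this sum overlapped, and its log2 difference changed sign with the scaling, from 0.041 with TMM factors to -0.094 with library totals (0.12 with the longest transcript as length, where the ranges of the lines did not overlap). SMARCC1 was 53.2% ± 0.541 of this sum in EA.hy926 and 67.0% ± 0.426 in HMEC-1. The transcripts of the scaffold pair were thus near balance in EA.hy926 and weighted to SMARCC1 in HMEC-1 on this length scale. The ratio of SMARCC1 to SMARCC2 spanned 1.11 to 1.17 in EA.hy926 against 1.99 to 2.08 in HMEC-1 with the union of annotated exons as length, and its mean was 0.757 and 1.35 with the longest transcript, so which paralog leads in EA.hy926 depends on the length used. The shift between the lines does not, at a log2 difference of -0.84 with either length. The ATPase sum over the SMARCC sum was 0.141 ± 0.00777 in EA.hy926 and 0.446 ± 0.0126 in HMEC-1, 3.18-fold higher in HMEC-1. With the longest transcript as length this ratio was 0.256 in EA.hy926 and 0.861 in HMEC-1, and it was higher in HMEC-1 with either length.

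**Figure D2:**
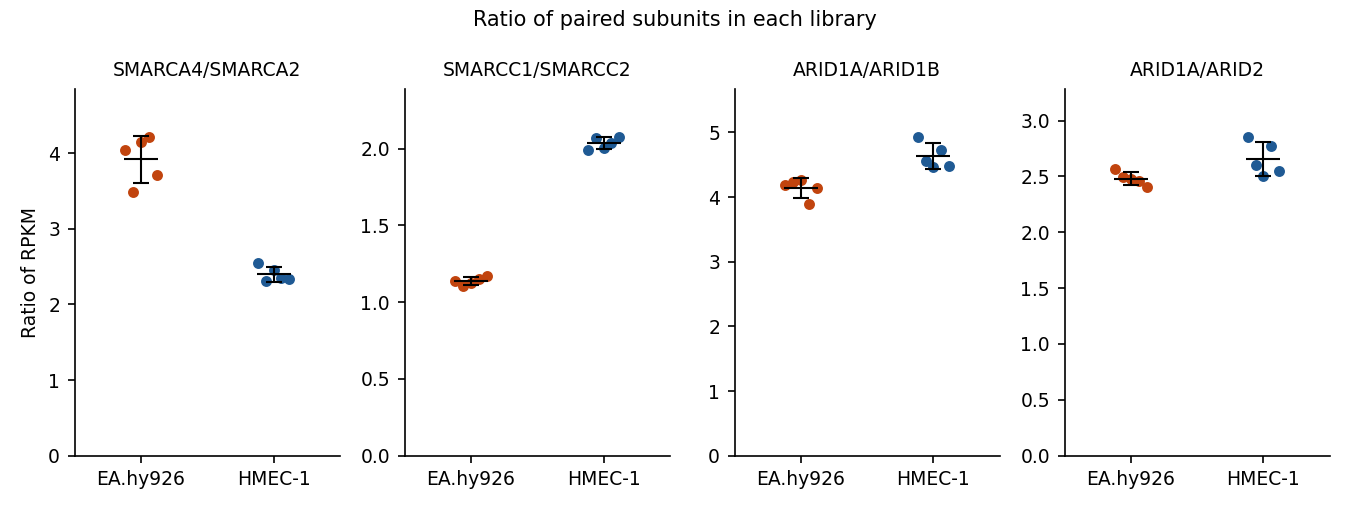
Ratio of RPKM between paired subunits in each library of EA.hy926 and HMEC-1, on linear axes that start at 0, with RPKM computed over the union of annotated exons and error bars of 1 SD around the mean. SMARCA4 over SMARCA2 is higher in EA.hy926 (3.92 against 2.40), SMARCC1 over SMARCC2 is lower (1.14 against 2.03), and ARID1A over ARID2 overlaps between the lines.

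SMARCD1 (BAF60A, ENSG00000066117, chr12:50085200-50100707, plus strand), which links the complex to transcription factors, was the other member that was higher in EA.hy926. Its level was 155, 149.7, 157, 153 and 153 CPM in EA.hy926 against 117, 121, 123, 122 and 123 in HMEC-1. The log2FC was 0.34 (SE 0.024, edgeR adjusted p = 2.4e-11). SMARCB1 (SNF5, ENSG00000099956, chr22:23786931-23838009, plus strand), the core subunit that holds on to the nucleosome, differed least of all members. It had 97.5, 99.6, 101, 98.2 and 98.9 CPM in EA.hy926 against 105, 108, 106, 106 and 107 in HMEC-1. Its ranges lay close without overlapping, and the log2FC was -0.10 (SE 0.024, edgeR adjusted p = 4.7e-04), a 1.07-fold higher level in HMEC-1. Of the exonic bases of SMARCB1, 17.7% lie under exons of other genes, so part of its count may belong to them.

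The members that mark canonical BAF or PBAF were all lower in EA.hy926, by little for the ARID genes and by more for PBRM1. ARID1A (BAF250A, ENSG00000117713, chr1:26693236-26782104, plus strand) had 124, 114, 122, 108 and 114 CPM in EA.hy926 against 154, 138, 141, 154 and 147 in HMEC-1, a log2FC of -0.33 (SE 0.038, edgeR adjusted p = 4.1e-08). ARID1B (BAF250B, ENSG00000049618, chr6:156776020-157210779, plus strand), its alternative in canonical BAF, had 81.0 ± 2.93 and 91.3 ± 2.94 CPM (log2FC = -0.17, SE 0.031, edgeR adjusted p = 2.5e-05). Its highest EA.hy926 library, at 85.2 CPM, lay just under its lowest HMEC-1 library, at 87.3 CPM. ARID2 (BAF200, ENSG00000189079, chr12:45729706-45908040, plus strand) had 36.5 ± 1.60 and 43.0 ± 1.43 CPM (log2FC = -0.24, SE 0.037, edgeR adjusted p = 4.4e-06).

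PBRM1 (BAF180, ENSG00000163939, chr3:52545352-52685917, minus strand), the polybromo subunit that binds acetylated histones in PBAF, stood between the ATPases and the ARID genes. Its level was 91.4, 88.9, 88.3, 82.3 and 78.4 CPM in EA.hy926 against 150.3, 154, 149, 158 and 155 in HMEC-1. Although no EA.hy926 library came near the HMEC-1 range, the 1.78-fold higher level in HMEC-1 (log2FC = -0.84, SE 0.035, edgeR adjusted p = 2.1e-15) stayed under the fold threshold. Of all genes tested, 19.6% had a lower log2FC. The PBAF pair ARID2 and PBRM1 was thus unevenly different, with a log2FC of -0.24 against -0.84.

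The ARID balance moved little. The RPKM sum of ARID1A, ARID1B and ARID2 lay between 11.3 and 12.6 in the EA.hy926 libraries and between 13.9 and 15.2 in the HMEC-1 libraries, and ARID2 was 24.5% ± 0.434 and 23.7% ± 0.880 of it. With the longest transcript the sum was 25.3 and 30.5 RPKM on average, and ARID2 was 16.8% and 16.4% of it. The ratio of ARID1A to ARID1B spanned 3.88 to 4.26 in EA.hy926 against 4.46 to 4.93 in HMEC-1, without overlap. Its level depends on the length used, with means of 1.81 in EA.hy926 and 2.02 in HMEC-1 for the longest transcript. The ratio of ARID1A to ARID2, 1 canonical BAF subunit against 1 PBAF subunit, was 2.40 to 2.57 and 2.50 to 2.85. These ranges overlapped, at a log2 difference of -0.098. The ratio does not measure the balance of the complexes, and PBRM1, the other PBAF member, had a log2FC of -0.84.

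**Figure D3:**
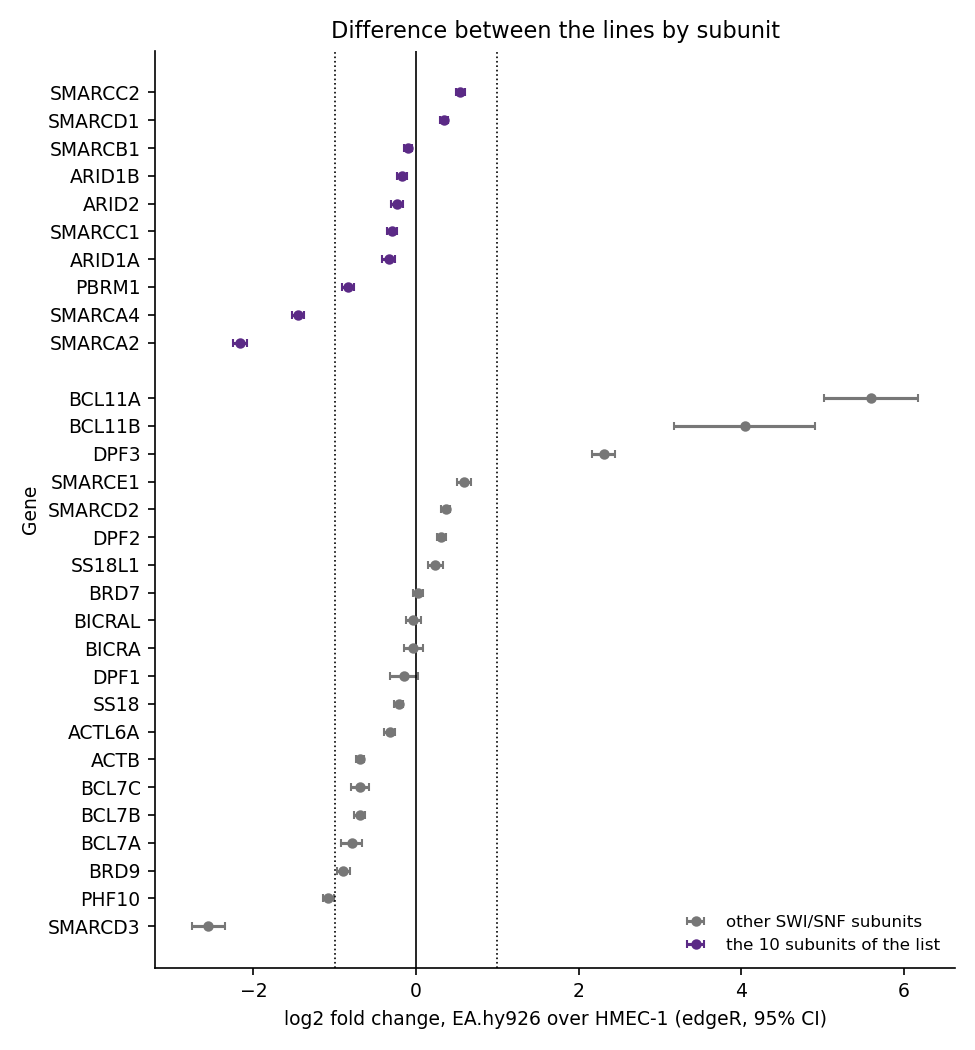
Log2FC (EA.hy926 over HMEC-1) with 95% confidence intervals from edgeR for the 10 members and for the other SWI/SNF subunits tested, in order of log2FC within each list, with dotted lines at -1 and 1 and fitted values for BCL11A and BCL11B that depend on the prior count. Among the members SMARCA2 (-2.16) and SMARCA4 (-1.45) lie below -1, PBRM1 lies at -0.84, and SMARCC2 and SMARCD1 lie above 0.

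Ordered by RPKM, SMARCD1 was the most abundant of the members in EA.hy926 with 31.3 ± 0.542, followed by SMARCC1 with 22.2 ± 0.618 and SMARCC2 with 19.5 ± 0.630 (SD, n = 5). PBRM1 (8.89), ARID1A (7.30), SMARCB1 (5.99), SMARCA4 (4.67), ARID2 (2.94), ARID1B (1.76) and SMARCA2 (1.19) came after them. The ranges of neighbours in this order did not overlap. In HMEC-1 the order was SMARCC1 (27.2 RPKM), SMARCD1 (24.7), PBRM1 (15.9), SMARCC2 (13.4), SMARCA4 (12.8), ARID1A (9.21), SMARCB1 (6.43), SMARCA2 (5.34), ARID2 (3.47) and ARID1B (1.99), and only SMARCC2 and SMARCA4 overlapped among neighbours. SMARCA2 was thus the least abundant member in EA.hy926 and stood above ARID2 and ARID1B in HMEC-1. These orders rest on exon unions of 4903 to 45931 bases, and with the longest transcript as length SMARCD1 led in HMEC-1 and SMARCA4 came next, its range overlapping those of SMARCD1 and SMARCC1, while SMARCA2 stayed the lowest in EA.hy926 at 3.23 RPKM. In EA.hy926 that length put SMARCC2 before SMARCC1, SMARCB1 in place 4 and PBRM1 in place 7, and the ranges of ARID1A and SMARCA4 overlapped. In HMEC-1 it put PBRM1 in place 6, and ARID1B came before ARID2 in both lines.

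The remaining SWI/SNF subunits were taken as a list of 21 genes, of which 20 were tested, because the neuronal actin-like subunit ACTL6B had 0 to 1 counts per library. Of the 20, 7 were higher and 9 lower in EA.hy926 at an edgeR adjusted p under 0.05, where 42.6% and 43.3% of all genes tested were. Past both thresholds 3 were higher and 2 lower, where 19.1% and 16.4% of all genes tested were. The median log2FC of the list was -0.090. The list thus held genes of both directions.

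Among core subunits, SMARCD2 and SMARCE1, which contacts DNA through an HMG domain, were higher in EA.hy926, like SMARCD1. Their log2FC values were 0.37 (SE 0.026) and 0.59 (SE 0.042), and for SMARCE1, 18.1% of its 50-base stretches are shared with other annotated genes. SMARCD3 (BAF60C), the third SMARCD paralog, known from heart and muscle, went the other way with 53 to 73 counts in EA.hy926 libraries against 343 to 479 in HMEC-1 libraries (log2FC = -2.55, SE 0.099, edgeR adjusted p = 5.1e-16). Of its exonic bases, 28.4% lie under exons of other genes. The actin-like subunit ACTL6A (log2FC = -0.32) and ACTB (log2FC = -0.68), a subunit that is mainly the cytoskeletal β-actin, were lower in EA.hy926, and ACTB shares stretches with its processed pseudogenes.

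The BCL7 genes were lower together, with a log2FC of -0.79 for BCL7A, -0.69 for BCL7B and -0.69 for BCL7C. BRD9, a bromodomain subunit of the non-canonical BAF complex, had a log2FC of -0.89 (SE 0.037). PHF10, a PBAF subunit with PHD fingers, had 34.5 ± 1.26 CPM in EA.hy926 against 72.8 ± 1.77 in HMEC-1 (log2FC = -1.08, SE 0.032, edgeR adjusted p = 4.0e-18). Of the exonic bases of PHF10, 10.5% lie under exons of other genes, and 5.70% of its 50-base stretches are shared with other annotated genes. PHF10 and PBRM1 were thus both lower, and the remaining PBAF subunit BRD7 did not pass the test, at a log2FC of 0.024 (95% confidence interval -0.036 to 0.084, edgeR adjusted p = 0.430). The counts of BRD7 are uncertain, since 41.9% of its exonic bases lie under exons of other genes. Separately, 10.7% of its 50-base stretches are shared with other annotated genes, 9.45% with BRD7P2. With library totals BRD7 was lower at a log2FC of -0.11.

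The DPF genes, whose PHD fingers bind acetylated histones in canonical BAF, diverged. DPF3 was higher in EA.hy926 with 35.1 ± 1.05 against 7.04 ± 1.05 CPM (log2FC = 2.31, SE 0.068, edgeR adjusted p = 3.5e-18), and DPF2 had a log2FC of 0.31 (SE 0.028). DPF1 did not pass, at a log2FC of -0.15 (95% confidence interval -0.31 to 0.019, edgeR adjusted p = 0.0907), but it did without EA.hy926 replicate 5 (log2FC = -0.18) or without HMEC-1 replicate 4 (log2FC = -0.20). SS18 was lower (log2FC = -0.21) and its paralog SS18L1 higher (log2FC = 0.24). The non-canonical BAF subunits BICRA and BICRAL did not pass, with log2FC values of -0.033 and -0.032.

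The BCL11 zinc finger subunits, known from blood and neural lineages, were low in EA.hy926 and near or under the floor in HMEC-1. BCL11A had 94 to 113 counts in EA.hy926 libraries against 0 to 5 in HMEC-1 libraries (log2FC = 5.60, SE 0.28, edgeR adjusted p = 4.1e-14), a value that depends on the prior count. BCL11B had 12 to 34 counts in EA.hy926 against 0 to 3 in HMEC-1, at least 8.19-fold higher in EA.hy926 by the 3 counts per library taken as the floor (edgeR adjusted p = 9.6e-09). Neither gene has at least 10 counts in every library, and with that requirement the number of other subunits higher past both thresholds was 1, DPF3.

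For comparison, 29 of 30 listed SNF2-family ATPases outside SWI/SNF were tested. At an edgeR adjusted p under 0.05, 11 were higher and 16 lower in EA.hy926, where 42.6% and 43.3% of all genes tested were. Past both thresholds 1 was higher and 4 lower, where 19.1% and 16.4% of all genes tested were. The median log2FC of this list was -0.13. The lowest with at least 10 counts in every library were CHD7, a chromodomain remodeler of development, with a log2FC of -2.54 (SE 0.064), and the recombination factors RAD54L with -1.45 (SE 0.051) and RAD54B with -1.30 (SE 0.087), the last with 66.0% of its exonic bases under exons of other genes. The highest were the fork remodeler ZRANB3 with 1.16 (SE 0.052), CHD6 with 0.91 (SE 0.039) and ATRX, which deposits a histone variant with DAXX, with 0.52 (SE 0.041). SMARCA2 thus lay within the range of this list and below all of it except CHD7, and whether the SWI/SNF ATPases differ from the list was not tested. With library totals, 6 of the list were higher in place of 11.

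**Figure D4:**
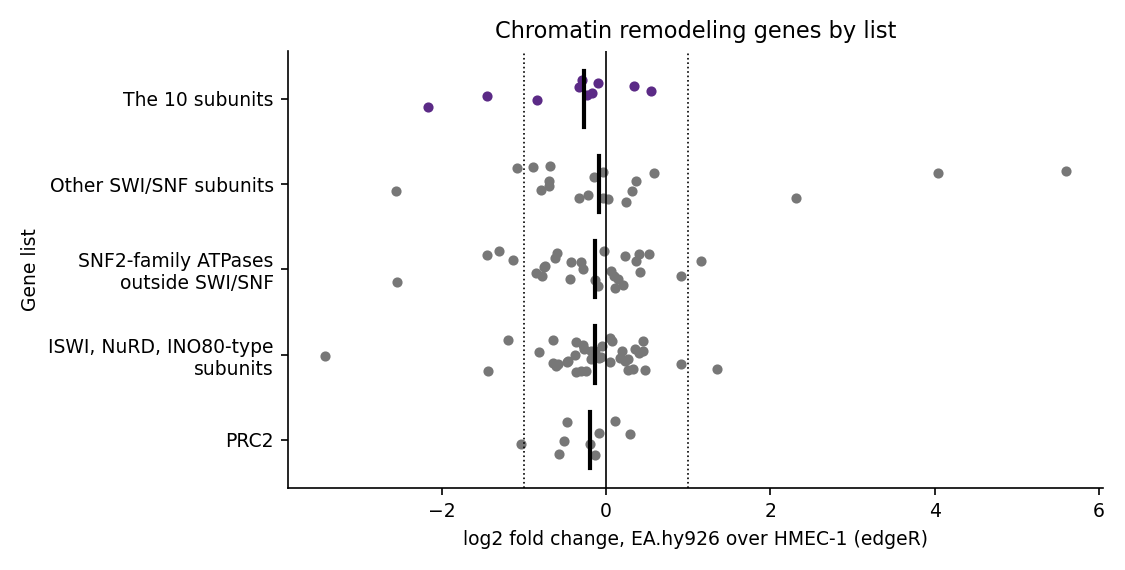
Log2FC (EA.hy926 over HMEC-1) of each tested gene of the SWI/SNF members, the other SWI/SNF subunits and the lists of other chromatin regulators, with a bar at the median of each list and dotted lines at -1 and 1. The medians lie at -0.26 for the members, -0.090 for the other subunits and between -0.20 and -0.13 for the remaining lists.

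The members lie on several chromosomes, and genes near them were read in the same fit. Within 5 Mb of SMARCA2, on the short arm of chromosome 9, 27 other genes were tested, 4 higher and 19 lower in EA.hy926, with a median log2FC of -0.57 where all of chromosome 9 had -0.21. SMARCA2 itself, at -2.16, was well below that median. Around SMARCA4 the 211 neighbours had a median log2FC of -0.030, close to the -0.056 of chromosome 19, and SMARCA4 at -1.45 lay far below both. The members higher in EA.hy926, SMARCC2 and SMARCD1, lie on chromosome 12, where their neighbours had medians of 0.61 and 0.55 and the whole chromosome 0.41.

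ARID2, also on chromosome 12, went against its 85 neighbours, at -0.24 where their median was 0.36. SMARCC1 and PBRM1, on the short arm of chromosome 3, had neighbours with a median log2FC of -0.30 each where the chromosome had 0.15. For SMARCC1 the neighbour median matched its own log2FC of -0.29, whereas PBRM1 was lower at -0.84. The neighbours of ARID1A, SMARCB1 and ARID1B had medians of -0.39, -0.28 and -0.24. Windows of members on the same chromosome share genes, and the part of DNA copy number, which these counts do not measure, was not tested.

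**Figure D5:**
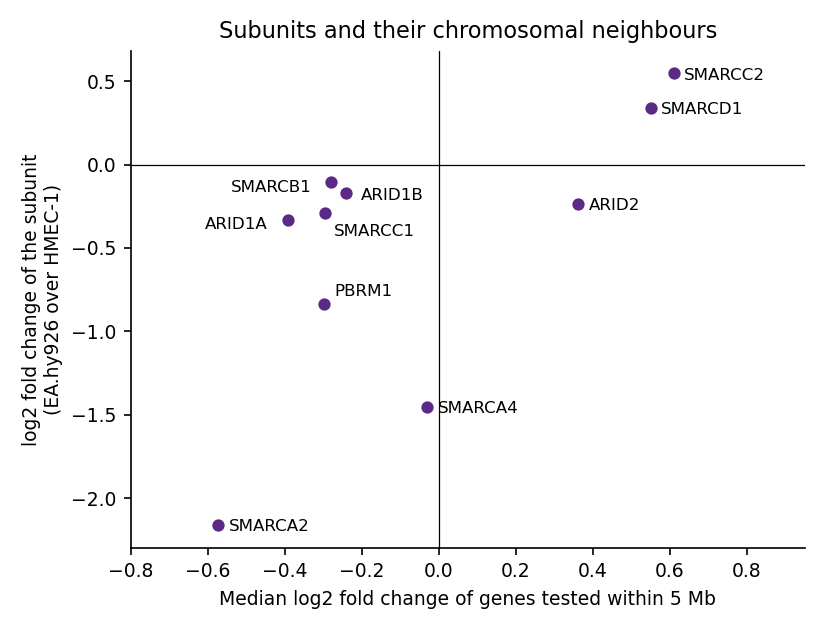
Log2FC of each of the 10 members (vertical) against the median log2FC of the other genes tested within 5 Mb of it (horizontal), EA.hy926 over HMEC-1. SMARCA4 (-1.45) and SMARCA2 (-2.16) lie far below the medians of their neighbours (-0.030 and -0.57), and ARID2 lies below 0 where the median of its neighbours is above 0.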

How the data were processed

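RNA was taken from untreated EA.hy926 and HMEC-1 cells with 5 biological replicates each, and the line and replicate number of each library came from the labels. The authors selected poly(A) RNA, sequenced it and aligned it to GRCh38 with HISAT2, and they deposited raw counts per gene, neither normalized nor filtered. The methods name HTSeq as the counter, the submitters' processing notes featureCounts (with fastp and DESeq2), and the versions, annotation release and strand setting are not given in the sources used here. Counts of overlapping genes are therefore uncertain.

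From these counts, low genes were removed by filterByExpr (count 10, total 15) and the lines compared with TMM factors, glmQLFit and glmQLFTest in edgeR 4.0.16 (R 4.3.3), with no covariates, and p-values were adjusted by Benjamini-Hochberg over 16310 genes. Both thresholds means adjusted p below 0.05 with a log2FC beyond 1 in either direction. Symbols, coordinates and exon lengths came from GENCODE 44, which matched 56434 of 60448 genes, and exonic overlap on either strand from bedtools 2.31.1. Coding sequences were aligned with Biopython 1.88. At these depths 3 counts, the floor, make 0.0651 to 0.0904 CPM, and since reads lack molecular identifiers and are not independent, it covers counting error only. The tests were tried on simulated data.

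Named were all members, every other subunit, and of the other lists the lowest and highest log2FC among genes that passed with at least 10 counts in every library (3 each for SNF2-family ATPases, 1 each otherwise). The members and all lists were chosen with earlier results of these data known. Alternatives were DESeq2 1.42.0, limma-voom (limma 3.58.1), RLE factors, library totals, no filter, at least 10 counts in every library, a replicate block, glmTreat, each library left out and, for RPKM, the longest transcript as length. No protein sequences were used here.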

Additional observations from a re-analysis of the deposited data

Results flagged for a closer look

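Values of 40 genes were examined in the 5 libraries of each line, 80 groups in all, for a highest or lowest library far from the rest (Dixon's test at 95%), which chance gives in about 1 of 20 groups. There were 4 such groups. SMARCD1 had 117 CPM in HMEC-1 replicate 1, where the nearest other library had 121 CPM. ACTB had 5312 CPM in HMEC-1 replicate 2, with the nearest at 5056 CPM. CHD7 had 3.31 CPM in EA.hy926 replicate 2, with the nearest at 4.09 CPM. CECR2 had 0.781 CPM in EA.hy926 replicate 5, with the nearest at 0.655 CPM. Each of these libraries stayed on its own side of the other line.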

How the results depend on the processing

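Each of the 10 members kept its direction and its call at an adjusted p under 0.05 under every alternative except glmTreat. That test against a log2FC of 1 called SMARCA4 and SMARCA2 alone of the members, and 2745 genes higher and 2276 lower of all 16310. The log2FC of SMARCA4 ranged from -1.59 to -1.42 and that of SMARCA2 from -2.30 to -2.14, with library totals the lowest. Library totals made the log2 difference of the summed ATPase level -1.76 in place of -1.63, turned that of the summed SMARCC level to -0.094 from 0.041, turned BRD7 to -0.11, brought BICRA, BICRAL and DPF1 past the p threshold, and raised the lower share of all called genes from 50.4% to 57.3%. They left 1 PRC2 gene higher in place of 2, as did no filter, the number of PRC2 genes lower was 6 or 7 over the alternatives, and glmTreat left 0 PRC2 genes lower past the fold threshold. A minimum of 10 counts in every library left 1 other subunit higher past both thresholds in place of 3. With the longest transcript as length, the log2 difference of the summed SMARCC level was 0.12, the ratio of SMARCC1 to SMARCC2 was 0.757 in EA.hy926 and 1.35 in HMEC-1, that of ARID1A to ARID1B 1.81 and 2.02, that of ARID1A to ARID2 3.19 and 3.42, and that of the ATPase sum to the SMARCC sum 0.256 and 0.861. Replicate numbers are shared by the lines, but libraries of the same number did not deviate together (correlations of -0.023 to 0.039, the best partner having the same number for 2 of 5), and the replicate block gave 6911 genes higher and 7024 lower in place of 6940 and 7057, with 2 members higher and 8 lower as before. Depth limits BCL11A, BCL11B, CECR2 and the marker genes near 3 counts, and not the members, which had at least 757 counts in every library. Neither count data nor the labels allow line and medium to be separated.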

Other observations

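Of 40 listed non-ATPase subunits of ISWI, NuRD and INO80-type remodelers, 39 were tested, with a median log2FC of -0.13. At an edgeR adjusted p under 0.05, 14 were higher and 21 lower in EA.hy926, where 42.6% and 43.3% of all genes tested were. Past both thresholds 1 was higher and 3 lower, where 35.5% of all genes tested passed both. The lowest was CECR2, an ISWI partner with a bromodomain, with 21 to 29 counts in EA.hy926 libraries against 249 to 317 in HMEC-1 libraries (log2FC = -3.41, SE 0.12). The highest was INO80C, a subunit of the INO80 complex, with 23.0 ± 1.49 against 8.98 ± 0.771 CPM (log2FC = 1.36, SE 0.061).

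Polycomb repressive complex 2, which opposes SWI/SNF at many developmental genes, had 9 of 9 listed genes tested, with a median log2FC of -0.20. Of all genes tested, 42.6% were higher and 43.3% lower at an edgeR adjusted p under 0.05. In this list, 2 genes were higher and 7 lower in EA.hy926. Of these, EED passed narrowly (log2FC = -0.079, edgeR adjusted p = 0.0383), and the number lower was 6 with the replicate block, with DESeq2, with at least 10 counts in every library, without any 1 of the EA.hy926 replicates 1 to 5 or without HMEC-1 replicate 2. PHF1, an accessory subunit, was the only gene of this list past both thresholds, with 23.9 ± 1.82 CPM in EA.hy926 against 48.9 ± 1.03 in HMEC-1 (log2FC = -1.03, SE 0.043), and it did not pass the glmTreat test against a log2FC of 1 (adjusted p = 0.261). AEBP2, which helps the complex bind nucleosomes, was the highest at a log2FC of 0.29 (SE 0.033).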
